A study of Mus musculus with 4 samples.

Results

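The 4 Notch ligand genes Jag1, Jag2, Dll1 and Dll4 were taken from a single-cell table of 18767 genes in the mouse aorta, by their gene symbols. They were followed over the 824 of 991 cells that had more than 1200 genes each, the minimum named in the methods of the study, in 4 libraries. The study counted all 991 as past its quality control, so the cells followed here are fewer than its own. In the GRCm38 assembly with the GENCODE vM21 annotation, Jag1 (ENSMUSG00000027276.7) lies at chr2:137081456-137116644 on the minus strand, with up to 26 exons in a transcript. Jag2 (ENSMUSG00000002799.6) lies at chr12:112907819-112929776 on the minus strand, also with up to 26 exons. Dll1 (ENSMUSG00000014773.13) lies at chr17:15367354-15376872 on the minus strand and Dll4 (ENSMUSG00000027314.6) at chr2:119325784-119335962 on the plus strand, each with up to 11 exons.

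The study used mice whose Jag1 gene can be deleted in endothelial cells (EC) to ask what the ligand does in the artery wall. Values given as a run of 4 follow the order of the libraries, s001 to s004. Of these s001 and s002 (replicates 1 and 2) were labelled Jag1 ECKO, which are Jag1 fl/fl Cdh5 CreERT2/+ mice, and s003 and s004 (replicates 1 and 2) were labelled Jag1 ECWT, which are Jag1 fl/fl Cdh5 +/+ mice without Cre. All mice were on the C57BL/6J background and carried the floxed Jag1 allele, Cre was driven by the EC gene Cdh5, and tamoxifen was given to activate it. Aortas from the root to below the iliac artery were digested, the adventitia was removed, and CD31+ CD45- TO-PRO-3- cells were sorted singly into plates for SORT-seq, a method that tags the 3′ end of each transcript with a unique molecular identifier (UMI). The mice were males of 1.5 to 3 months, matched for age between groups, and the diet before this experiment and the number of aortas in a library are not given in the sources used here. The libraries are described as 4 experiments, but since nothing states that they came from separate animals, p-values measure only the spread between these libraries.

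Notch ligands are membrane proteins that bind Notch receptors on a neighbouring cell. Binding lets ADAM proteases and γ-secretase release the intracellular part of the receptor, which joins RBPJ in the nucleus and switches on HES and HEY genes, and Fringe enzymes (Lfng, Mfng, Rfng) modify the receptor so that Jagged and Delta ligands act on it differently. In blood vessels, Dll4 is known for arterial identity and the restraint of sprouting, Jag1 for sprouting and for signalling to smooth muscle, and Dll1 for keeping arterial identity, while less is settled about Jag2.

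The cells kept had between 859280 and 1779042 counts in a library and a median of 4212 to 6518 counts per cell. EC markers were present in every library, and 98.1% of cells had at least 5 of the 10. Clustering, with the ligands left out of the genes used, gave 13 EC-like clusters with 795 cells and 1 fibroblast/VSMC-like cluster with 29 cells. Library s001 stood apart, with the lowest median depth, 52 of the 61 cells of cluster 7 (led by Nr4a1, Junb, Dusp1 and Egr1), 4242 CPM (counts per 1000000 counts) summed over 19 dissociation response genes against 2191 to 2905 in the others, and 84.6 CPM of the 4 erythroid markers in the table against 0 to 1.34. It was also highest in the 10 VSMC markers (3515 CPM against 439 to 1605) and in the 7 lipid-handling EC markers (872 CPM against 206 to 249.6). Without cluster 7 the log2 fold changes between labels were 1.96 for Jag1, -0.54 for Dll1 and -0.018 for Dll4. Of 373 well barcodes, 324 occurred in 2 or more libraries, since plates use 1 set of barcodes.

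Jag1, the targeted gene, was higher in the libraries labelled as its deletion. Its counts were 161, 126, 28 and 39 from s001 to s004. Scaled, this was 158 and 70.8 CPM under the label Jag1 ECKO, and 32.6 and 26.1 CPM under Jag1 ECWT. The groups did not overlap, and the labels are therefore given as labels throughout. Whether libraries were exchanged cannot be told from these files, and other assays of the deletion were not analysed here, so the sign of every difference between labels holds only as labelled. Summed VSMC markers split the same way, at 3515, 1605, 439 and 1280 CPM. In EC-like cells alone Jag1 was at 164, 72.6, 30.8 and 26.2 CPM (log2 fold change 2.04, adjusted p = 0.919). Of 9730 genes tested, 16% also had both libraries labelled Jag1 ECKO above both labelled Jag1 ECWT, and 19.4% had both below. On the log2 scale the fit put the label Jag1 ECKO above Jag1 ECWT by 1.96 (SE 0.37, n = 2 libraries each). By edgeR's quasi-likelihood test the unadjusted p was 6.44e-04, which ranked it 12th of 9730 genes, and the adjusted p was 0.428. No gene was called in this comparison (0%), against 465 at an unadjusted p below 0.05 and 2 called by DESeq2. DESeq2 gave Jag1 a log2 fold change of 1.97 with an adjusted p of 0.0497. Without s001 the fit gave 1.36 (adjusted p = 2.42e-04), and without s002 it gave 2.42 (adjusted p = 8.09e-20), with the lone library assumed to vary like the others. Outside the cluster highest in Jag1 the log2 fold change was 2.39 (adjusted p = 0.325), and without cluster 7 the CPM was 166 in s001 and 70.0 in s002. The sources used here do not say which exons the floxed part covers, and a 3′ tag outside the deleted part checks nothing about the deletion.

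Dll1 had 103, 45, 91 and 106 counts from s001 to s004. In CPM these were 101, 25.3, 106 and 71.0. The library low in Dll1 was s002, and s001 lay within the range of the libraries labelled Jag1 ECWT, so that the groups overlapped. The log2 fold change was -0.53 (SE 0.50, edgeR adjusted p = 0.919). It became -1.70 without s001 (adjusted p = 2.66e-06) and turned to 0.20 without s002 (adjusted p = 0.799), so that leaving out either of the libraries labelled Jag1 ECKO changed its call or its direction.

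Dll4 varied least over libraries among the 3 ligands with enough counts to test, with a highest CPM 1.99 times its lowest, against 4.19 times for Dll1 and 6.06 times for Jag1. Its counts were 28, 37, 13 and 45. In CPM these were 27.6, 20.8, 15.1 and 30.2, and both libraries labelled Jag1 ECKO lay between those labelled Jag1 ECWT. The log2 fold change was 0.02 (SE 0.40, edgeR adjusted p = 0.994). Its direction changed without s001 (-0.14) and without s003 (-0.36), and no setting tried called it.

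Jag2 was rare. Its counts were 1, 6, 2 and 4, or 0.98, 3.37, 2.33 and 2.68 CPM. Its counts did not pass the low-count filter, so it had no value in the comparison of labels. Without the filter its log2 fold change was -0.06 (SE 1.25, edgeR adjusted p = 0.991). Dll3, a ligand that inhibits signalling within the cell and was not among the members, had 1 count in s002 and 0 in the other libraries.

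A count of Jag1 was found in 41.6% (95% exact binomial interval 34.7 to 48.7) and 33.5% (27.5 to 39.9) of cells under the label Jag1 ECKO, and in 10% (5.58 to 16.2) and 13% (9.07 to 17.9) under Jag1 ECWT. Intervals cover counting error only. Since deeper cells show more genes, each cell was also thinned to 2837 counts, which left out 36, 13, 13 and 20 cells. The Jag1 shares were then 30.9, 17.2, 6.11 and 7.81% in s001 to s004. The groups stayed apart after thinning, and s001 stood above s002.

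Dll1 had a count in 31.7, 17.8, 33.6 and 30.9% of cells in s001 to s004, and in 22.2, 8.55, 21.3 and 18.1% after thinning. Library s002 was again the low one, and the other libraries lay close together. Dll4 had a count in 10.4, 12.3, 7.86 and 13.8% of cells, and in 6.81, 5.68, 4.02 and 8.87% after thinning. The shares of both ligands fell with thinning, from a mean over libraries of 28.5 to 17.5% for Dll1 and of 11.1 to 6.35% for Dll4. Jag2 was seen in 1, 5, 2 and 3 cells, at most 2.12% of the cells of a library.

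**Figure D1:**
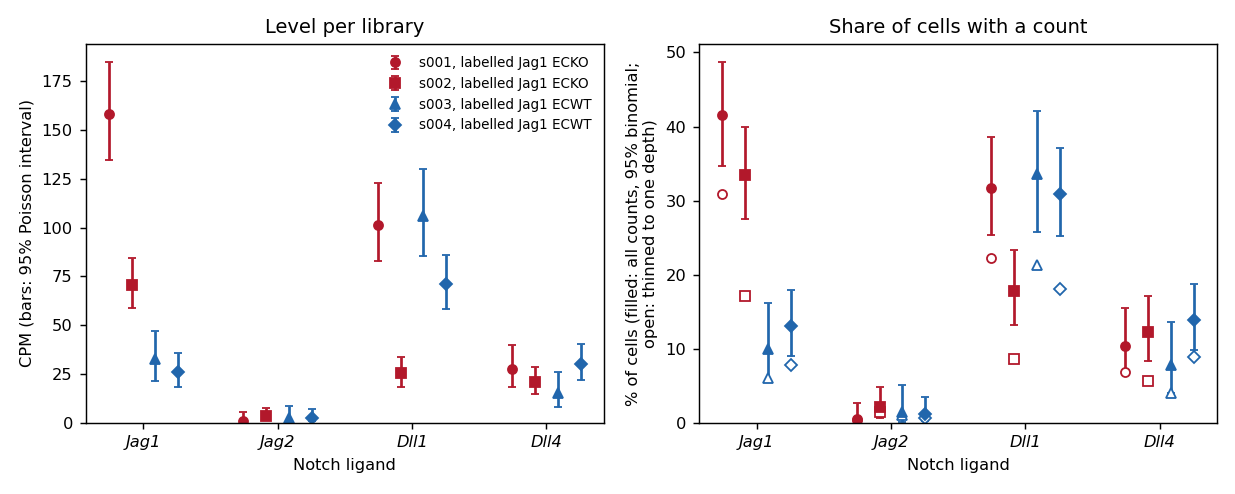
Level in CPM (left) and share of cells with a count (right) of the 4 ligands in each library, with 95% counting intervals; open symbols are shares after every cell was thinned to 2837 counts. Jag1 was highest in s001 and s002 (158 and 70.8 CPM), Dll1 was low in s002 alone (25.3 CPM), and the Dll4 intervals of the libraries overlapped.

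Most cells with a ligand had 1 count of it. Of the 209 cells with Jag1, 134 had 1 count and 75 had 2 or more, up to 10. Of the 229 cells with Dll1, 167 had 1 count and 62 had 2 or more, up to 7. Of the 95 cells with Dll4, 75 had 1 count, with at most 4, and of the 11 cells with Jag2, 9 had 1 count. At such levels a cell without a count cannot be told apart from a cell with few transcripts. Cells with Jag1 were the deeper ones in 3 of 4 libraries, with a median of 5284 counts against 3741 for cells without it in s001, 7761 against 6063 in s002 and 6293 against 5026 in s004, but 5559 against 5577 in s003. Cells with Dll1 were deeper in 4 of 4 and cells with Dll4 in 3 of 4 (4617 against 5275 in s004), while the few cells with Jag2 were shallower in s002 (3188 against 6568) and s003 (4168 against 5608).

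RNA set free from other cells could also place a count in a well, so the shares were set beside those of the 29 fibroblast/VSMC-like cells, whose median depth was 7546 counts against 5248 in EC-like cells. Dll1 had a count in 28.4% of EC-like cells (25.3 to 31.7) and in 3 of 29 fibroblast/VSMC-like cells (10.3%, 2.19 to 27.4). Dll4 was found in 11.8% (9.66 to 14.3) and in 1 of 29 (3.45%, 0.0873 to 17.8). For both ligands these intervals overlap. Jag2 was found in 1.38% of EC-like cells and in 0 of 29, which allows a share of up to 10.3% (3 cells of 29, with an exact upper limit of 11.9%), so its few counts were not set apart from such a background by this measure. Jag1, which smooth muscle cells are known to express, had a count in 24.8% of EC-like cells and in 12 of 29 fibroblast/VSMC-like cells (41.4%, 23.5 to 61.1), of which 8, 12, 3 and 6 came from s001 to s004. Its level in them was 56.2 CPM against 69.5 in EC-like cells, and lower than in EC-like cells in each library but s003.

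The order of the ligands differed between libraries. Each UMI stands for 1 tagged transcript whatever its length, so CPM values were compared between genes without dividing by length. Jag1 was 1.56 times Dll1 in s001 and 2.80 times in s002, but 0.308 times in s003 and 0.368 times in s004. Among all counts of the 4 ligands, Jag1 made up 54.9, 58.9, 20.9 and 20.1%, and Dll1 35.2, 21.0, 67.9 and 54.6%. Jag1 therefore led in both libraries labelled Jag1 ECKO and Dll1 in both labelled Jag1 ECWT. In s002 Dll1 and Dll4 were neighbours with overlapping intervals (25.3 and 20.8 CPM), as were Jag1 and Dll4 in s003 (32.6 and 15.1 CPM) and in s004 (26.1 and 30.2 CPM).

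Dll1 exceeded Dll4 in 4 of 4 libraries, by 3.68, 1.22, 7 and 2.36 times in s001 to s004, a log2 ratio of 1.55 ± 1.06 (SD, n = 4). An exact two-sided sign-flip permutation test over libraries gave p = 0.125, the smallest that 4 libraries allow, and 0.375 adjusted over the 3 pairs tested. Jag1 exceeded Dll4 in 3 of 4 libraries (log2 ratio 1.30 ± 1.16, exact permutation p = 0.25, adjusted 0.375). Jag1 exceeded Dll1 in 2 of 4 (log2 ratio -0.25 ± 1.56, exact permutation p = 0.875, adjusted 0.875).

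Jag1, Dll1 and Dll4 had counts in every cluster, with some clusters richer in them. These levels are a description, since clusters were made from the same cells. With the libraries pooled, Jag1 ranged from 28.0 CPM in cluster 4 to 353 CPM in cluster 13, an order that also reflects which libraries gave the cells of a cluster. Cluster 13 held 22 cells (5, 4, 11 and 2 in s001 to s004) and was led by Slc6a6 (a taurine transporter), Gpihbp1 (which anchors lipoprotein lipase to capillary EC), Igfbp3 and Vcan, with 5 of 7 lipid-handling EC markers raised. In it Jag1 was at 548 CPM against 148 in the other cells of s001, 378 against 14.7 in s003 and 266 against 24.3 in s004, but 58.5 against 70.9 in s002. Its 34 Jag1 counts came from 9 cells, 10 of them from a single cell of s003. Without cluster 13, Jag1 in s003 was 12 counts, or 14.7 CPM.

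Cluster 7, with dissociation genes, had the next highest pooled Jag1 level at 127 CPM. It was made almost wholly of s001 cells, however, and within s001 its level was 133 CPM against 166 in the other cells. Cluster 2, led by Adra2a, Cyp26b1 and Igf2, had 203 CPM of Jag1 against 153 in the rest of s001, 87.9 against 68.7 in s002 and 61.7 against 22.3 in s004, with 0 counts in its 5 cells of s003. Jag1 lay below the rest of the library in 4 of 4 libraries in cluster 4, led by Slc26a4, G0s2 and Pla2g5, in cluster 10 and in cluster 11, led by Lrg1 and Fabp4. Jag1 was at 65.0, 33.1, 0 and 0 CPM in cluster 11 and at 66.4, 38.2, 14.6 and 20 CPM in cluster 4. Cluster 11 had 6, 2, 0 and 0 counts in 18, 9, 3 and 2 cells. Cluster 4 had 2, 10, 2 and 5 counts in 5, 23, 18 and 27 cells. Cluster 10 had 0, 13, 1 and 0 counts in 2, 23, 4 and 7 cells. Such numbers are too few to rank these clusters within libraries.

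Dll4 and Jag2 also had their highest pooled levels in cluster 13. Dll4 was at 125 CPM there (95% Poisson interval 64.4 to 218), and at 3.75 to 41.1 CPM in the other clusters. Within libraries Dll4 was higher in cluster 13 than outside it in 4 of 4, at 156 against 24.2 CPM in s001, 117 against 19.9 in s002, 47.3 against 13.5 in s003 and 355 against 27.7 in s004. These rest on 12 counts in 6 cells. Jag2 was at 83.1 CPM in cluster 13, which held 8 of its 13 counts in 2.67% of the cells, and had no count in 10 of the 14 clusters. It too was higher there in 4 of 4 libraries.

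Dll1 was distributed differently. Its highest pooled level was in cluster 8, at 170 CPM (133 to 214), which held 73 of its 345 counts, or 21.2%, in 6.67% of the cells. That cluster was led by Hbegf (a growth factor of the EGF family), Ifit1, Pthlh, Klk10 and Fgf18. Dll1 in cluster 8 was at 146 CPM against 92.8 in the other cells of s001, 41.8 against 24.6 in s002, 281 against 75.2 in s003 and 156 against 67.2 in s004, higher in 4 of 4 libraries. Within libraries it was not always first, since clusters 2 (194 CPM), 6 (292 CPM), 11 (173 CPM) and 13 (156 CPM) exceeded it in s001 and clusters 5 (42.4 CPM) and 6 (59.4 CPM) in s002. The lowest pooled levels were in the fibroblast/VSMC-like cluster 12 (11.2 CPM), in cluster 10 (13.4 CPM, led by Coch and Fbln5) and in cluster 1 (26.3 CPM, led by Sfrp2 and Thbs1), each below the rest of its library in 4 of 4. Cluster 13 held 7 Dll1 counts in 3 cells (72.7 CPM).

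**Figure D2:**
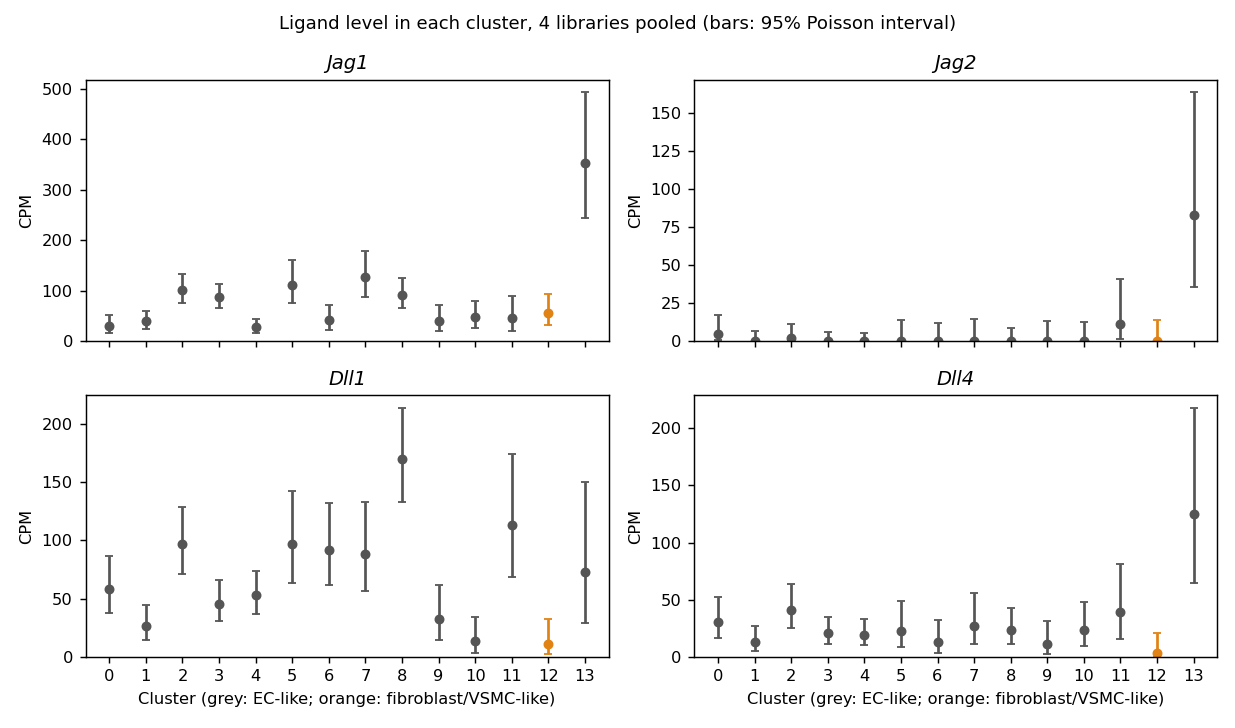
CPM of each ligand in the 14 clusters with the 4 libraries pooled and 95% Poisson intervals; orange marks the fibroblast/VSMC-like cluster. Jag1, Jag2 and Dll4 peak in cluster 13 (353, 83.1 and 125 CPM) and Dll1 in cluster 8 (170 CPM).

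Most cells with a ligand showed 1 kind only. No ligand was seen in 404 cells, 1 in 310, 2 in 97, 3 in 12 and all 4 in 1. Cells with 2 or more kinds made up 21.3, 13.1, 7.14 and 10.6% of the libraries, where the 4 ligands summed to 288, 120, 156 and 130 CPM.

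Whether ligands shared cells more than chance gives was asked at matched depth, since a deep cell shows more of every gene. With all counts, 64 cells had both Jag1 and Dll1, against 55.3 expected from the shares in each library (ratio 1.16). After thinning, the sum of probabilities was 20.2 cells against 19.5 (ratio 1.03). Within libraries the thinned ratio was 1.23 in s001 and 0.764, 0.748 and 0.775 in s002 to s004, and without s001 it was 0.765. Jag1 and Dll1 were thus seen together more than expected in 1 library and less in the others.

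Jag1 and Dll4 shared 32 cells against 24.0 expected with all counts (ratio 1.34), and 8.68 against 7.54 after thinning (ratio 1.15). The thinned ratios were 0.953, 0.826, 1.27 and 2.02 in s001 to s004, on both sides of 1. Dll1 and Dll4 shared 31 cells against 26.0 with all counts, and 8.25 against 8.31 after thinning (ratio 0.993, from 0.787 to 1.89 in single libraries). For these 3 pairs the thinned ratio was nearer to 1 than the unthinned one, and in the 276 shallowest cells, unthinned, the ratios were 0.865, 1.08 and 0.806. In the 273 deepest cells, which held 39, 19 and 17 of the cells with both, they were 1.23, 1.26 and 1.18.

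Jag2 and Dll4 were the exception. Of the 11 cells with Jag2, 6 also had Dll4, against 1.29 expected with all counts. After thinning the numbers were 2.73 against 0.413, a ratio of 6.61. The thinned ratio was above 1 in each library, at 13, 5.47, 8.34 and 5.76 in s001 to s004. The cell of s001 had 3 Jag1, 1 Jag2, 4 Dll1 and 3 Dll4 counts, the only cell with all 4 ligands. In s004, a cell with 2 Jag2 counts had 3 Jag1 and 1 Dll4, and another with 1 Jag2 count had 1 Dll1 and 3 Dll4. Of the 6 cells with both, 5 lay in cluster 13. The other lay in cluster 2 and had 2652 counts, under the depth of thinning, so that the thinned ratio outside cluster 13 says nothing. With all counts, Jag1 and Jag2 shared 3 cells against 2.68 expected, and Jag2 and Dll1 shared 3 against 2.80. After thinning these were 1.60 against 0.909 (ratio 1.76) and 1.42 against 0.975 (ratio 1.46), too few to say more.

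**Figure D3:**
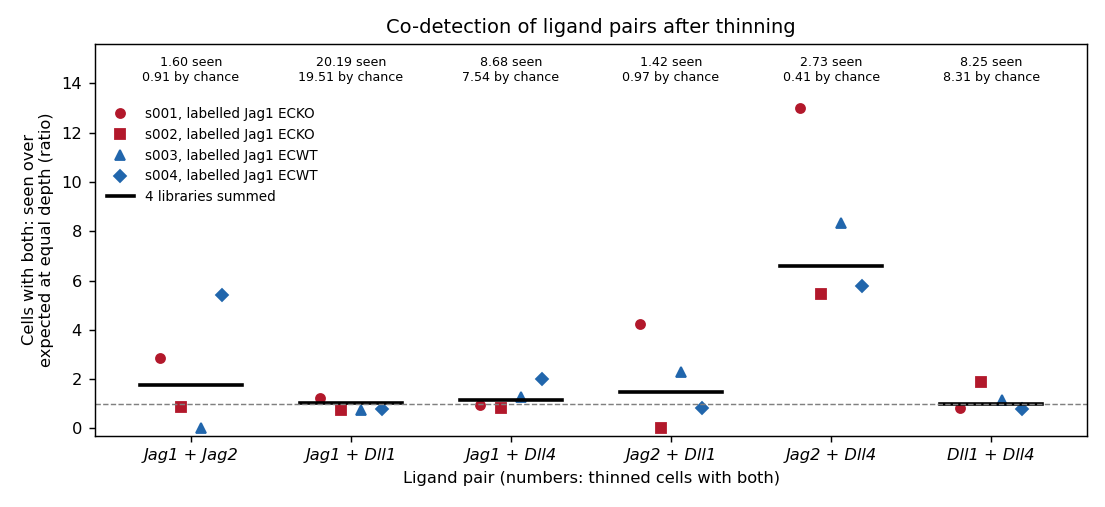
Ratio of cells with both ligands to the number expected by chance after thinning to 2837 counts, per library and for the 4 libraries summed (bars), with the summed numbers of cells printed above. Jag2 and Dll4 lie above 1 in every library (6.61 summed), and Jag1 with Dll1, Jag1 with Dll4 and Dll1 with Dll4 lie at 1.03, 1.15 and 0.993.

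Genes that went with each ligand were sought by summing EC-like cells with a count of it, within each library, and comparing them with as many EC-like cells without one of nearest depth. The edgeR test had the library as a covariate and left out the ligand itself. Jag2 could not be tested, as none of the libraries had 10 such cells. The cells without a count may be shared between the ligands' comparisons.

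Cells with Jag1 (81, 73, 12 and 31 in s001 to s004) had 4 genes higher (0.0655% of 6106 genes tested) and none lower (0%), with 195 genes in either direction at an unadjusted p below 0.05 and 1 called by DESeq2. In s001, with many cells with Jag1, the depths could not be matched fully (median of 5240 counts against 4232). The 19 dissociation response genes summed to 3699 CPM with Jag1 against 4496 without in s001, 2000 against 1811 in s002, 4110 against 2413 in s003 and 3143 against 2211 in s004, and none of the 18 tested was called. Igf2, a fetal growth factor, was at 445 CPM in cells with Jag1 against 205 without in s001, 197 against 113 in s002, 814 against 156 in s003 and 289 against 89.9 in s004. It was higher in 4 of 4 libraries, with a log2 difference of 1.27 (SE 0.19, adjusted p = 0.00186). In s003, 45 of the 63 Igf2 counts with Jag1 came from 1 cell. Cells with Igf2 numbered 37 with Jag1 against 27 without in s001, 29 against 21 in s002, 7 against 3 in s003 and 15 against 6 in s004. Coch, a secreted matrix protein, was also higher in 4 of 4 (1.59, SE 0.28, adjusted p = 0.0116), at 122 CPM against 72.6, 114 against 30.4, 594 against 51.9 and 80.0 against 36.0. However, 47 of its 57 counts in s001 and 45 of 46 in s003 came from 1 cell each, and in s001 fewer cells had it with Jag1 (5) than without (9).

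Vcan, the matrix proteoglycan versican, and Slc6a6 were called with log2 differences of 4.02 (SE 0.72, adjusted p = 0.0116) and 2.33 (SE 0.47, adjusted p = 0.0450), in 3 of 4 libraries. Vcan had 9 counts with Jag1 and 0 without in s001, 1 and 1 in s002, 37 and 0 in s003, and 16 and 2 in s004. Vcan lost its call with DESeq2 (adjusted p = 1.00), over all cells (2.17, adjusted p = 0.484) and without s001 (3.85, adjusted p = 0.0659). Slc6a6 passed under 3 of 8 alternatives, and lost its call without s001 (2.08, adjusted p = 0.644), s003 (1.45, adjusted p = 0.477) or s004 (2.98, adjusted p = 0.0793). Both are leading genes of cluster 13. Without that cluster both had too few counts to be tested and neither of the other genes was called, with Igf2 at 0.65 (adjusted p = 0.860) and Coch at 1.25 (adjusted p = 0.147). Igf2 passed under the other 8 of 9 alternatives and Coch under 5 of 9, not without s002 (adjusted p = 0.468) or s003 (adjusted p = 0.0505). Hapln1, which links proteoglycans to hyaluronan, had the next smallest p and was not called (log2 difference 3.58, SE 0.78, adjusted p = 0.102).

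Cells with Dll1 (64, 41, 46 and 75) had 3 genes higher (0.0465% of 6453) and 9 lower (0.139%), with 1 called by DESeq2. Thbs1, the secreted matrix protein thrombospondin-1, was at 251 CPM in cells with Dll1 against 912 without in s001, 346 against 753 in s002, 270 against 902 in s003 and 323 against 726 in s004. It was lower in 4 of 4 libraries, with a log2 difference of -1.46 (SE 0.13, adjusted p = 2.70e-08), and passed under each of the 9 alternatives tried. The secreted Wnt antagonists Frzb and Sfrp2 were also lower in 4 of 4. Frzb was at 43.2 CPM against 325 in s001, 207 against 320 in s002, 73.9 against 185 in s003 and 115 against 297 in s004 (log2 difference -1.43, SE 0.21, adjusted p = 7.23e-04). Sfrp2 was at 51.3 against 610, 69.1 against 85.5, 131 against 178 and 111 against 343 (log2 difference -1.63, SE 0.28, adjusted p = 0.00535), and in s001 148 of the counts without Dll1 came from 1 cell.

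The matricellular protein gene Ctgf (log2 difference -1.72, SE 0.32, adjusted p = 0.00906), Igfbp7 (-0.78, SE 0.15, adjusted p = 0.0194) and the elastic fibre protein Fbln5 (-0.61, SE 0.12, adjusted p = 0.0194) were lower in 4 of 4 libraries. The remaining genes lower with Dll1, named after their values were seen, were Ahsg (-1.01) and Apoe (-0.43), lower in 4 of 4, and Bmp4 (-0.60), lower in all but s002. Among the genes higher with Dll1 were Klk10, a secreted protease (log2 difference 0.82, SE 0.15, adjusted p = 0.00906), at 497 CPM against 215 in s001, 233 against 184 in s002, 366 against 260 in s003 and 320 against 145 in s004, and Atp1b3, a subunit of the sodium pump (0.72, SE 0.15, adjusted p = 0.0194). The third, named after its values were seen, was the fatty acid-binding protein gene Fabp4 (1.67, SE 0.29), higher in all but s002. Without s003 the count of called genes fell from 12 to 1 and without s004 to 2, and without s001 it rose to 21, so that the count rests on which libraries are in. Apart from Thbs1, the genes named by the rule passed under 3 to 5 of the 9 alternatives, and none of them passed with DESeq2 or without s003, nor without s004 except Igfbp7. With a library left out Ctgf ran from -2.76 (without s001) to -1.17 (without s004), and Sfrp2 from -2.03 (without s003) to -0.97 (without s001). Klk10 is a leading gene of cluster 8, the highest in Dll1. Thbs1, Sfrp2, Frzb and Ahsg are leading genes of cluster 1, where Dll1 was low. The only cluster left out in these fits was cluster 13, so the part of clusters 8 and 1 in the result was not tested.

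Summed over the list, smooth muscle (VSMC) markers were lower with Dll1 in each library, at 548 against 656, 459 against 560.2, 372 against 561 and 335 against 483 CPM. Of these 10 markers 5 were tested and none was called, with a median log2 difference of -0.51. Summed fibroblast markers were at 670 CPM with Dll1 against 1092 without in s001, 867 against 1139 in s002, 1216 against 876 in s003 and 961 against 1919 in s004. Of the 10 fibroblast markers 4 were tested and none was called, with a median log2 difference of -0.45. Lipid-handling EC markers were at 1448 against 340 CPM in s001, 223 against 348 in s002, 372 against 58.4 in s003 and 264 against 65.0 in s004, a list that holds Fabp4. Their part in the result was not tested.

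Cells with Dll4 (21, 29, 11 and 33) had 2 genes higher (0.0534% of 3742) and 4 lower (0.107%), with 1 called by DESeq2. Dcn, the matrix proteoglycan decorin, was at 361 CPM in cells with Dll4 against 593 without in s001, 226 against 663 in s002, 221 against 755 in s003 and 332 against 557 in s004. It was lower in 4 of 4 (log2 difference -1.18, SE 0.18, adjusted p = 2.66e-04) and passed under each of the 9 alternatives tried. Dcn is itself on the fibroblast marker list, of which 3 genes were tested. Summed over the list, Dcn included, fibroblast markers were at 949 against 1077 CPM in s001 and 538 against 1228 in s002. They were at 535 against 1590 in s003 and 823 against 1212 in s004. These sums were lower with Dll4 in each library, but in part they repeat the result for Dcn. Sums without Dcn were not taken. The part of these cells' RNA in the result was not tested.

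Plvap, which forms the diaphragms of EC fenestrae and caveolae, was lower with Dll4 in 4 of 4 libraries (log2 difference -0.86, SE 0.18, adjusted p = 0.0290). The junction protein gene Cgnl1 (-0.73, SE 0.16, adjusted p = 0.0339) and 1500015O10Rik (-0.95, SE 0.21, adjusted p = 0.0339) were likewise lower in 4 of 4. These 3 genes passed under 4, 3 and 4 of 9 alternatives, and none of them with DESeq2, without s001 (adjusted p = 0.592, 0.151 and 0.584) or without cluster 13 (adjusted p = 0.343, 0.521 and 0.533). Without s003 only 1500015O10Rik passed, and without s004 only Plvap. Igf2 was higher with Dll4, at 596 CPM against 249 in s001, 86.6 against 47.1 in s002, 500.1 against 279 in s003 and 343 against 129 in s004 (log2 difference 1.11, SE 0.22, adjusted p = 0.0170). However, 55 of its 81 counts with Dll4 in s001 and 34 of 43 in s003 came from 1 cell each. Cells with Igf2 numbered 12 with Dll4 against 11 without in s001, 9 against 8 in s002, 4 against 6 in s003 and 13 against 13 in s004. Igf2 passed under 4 of 9 alternatives. It was at 0.52 without cluster 13 (adjusted p = 0.997) and 0.65 against all EC-like cells without Dll4 (adjusted p = 0.998). It also lost its call without s001 (adjusted p = 0.451) and without s004 (adjusted p = 0.104). Igfbp5, named after its values were seen, was called with a log2 difference of 1.83 (SE 0.42), but in cells with Dll4 it had 239 counts in s002, up to 154 in a cell, and 4, 5 and 1 in s001, s003 and s004.

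Set side by side, Igf2 was at 1.27 with Jag1, 1.11 with Dll4 and 0.59 (SE 0.24, adjusted p = 0.671) with Dll1, and at 0.65 with Jag1 and 0.52 with Dll4 once cluster 13 was left out. Thbs1 was at -1.46 with Dll1, -0.14 (SE 0.21) with Jag1 and 0.09 (SE 0.20) with Dll4. Fbln5 was at -0.61 with Dll1 and 0.62 (SE 0.17, adjusted p = 0.646) with Jag1. Differences between ligands were not tested. In these fits the ligands themselves did not pass with one another. Dll4 in cells with Jag1 had a log2 difference of 0.31 (SE 0.42, edgeR adjusted p = 1.00), Dll1 in cells with Jag1 one of 0.28 (SE 0.29, adjusted p = 1.00), and Dll4 in cells with Dll1 one of -0.12 (SE 0.39, adjusted p = 0.991).

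**Figure D4:**
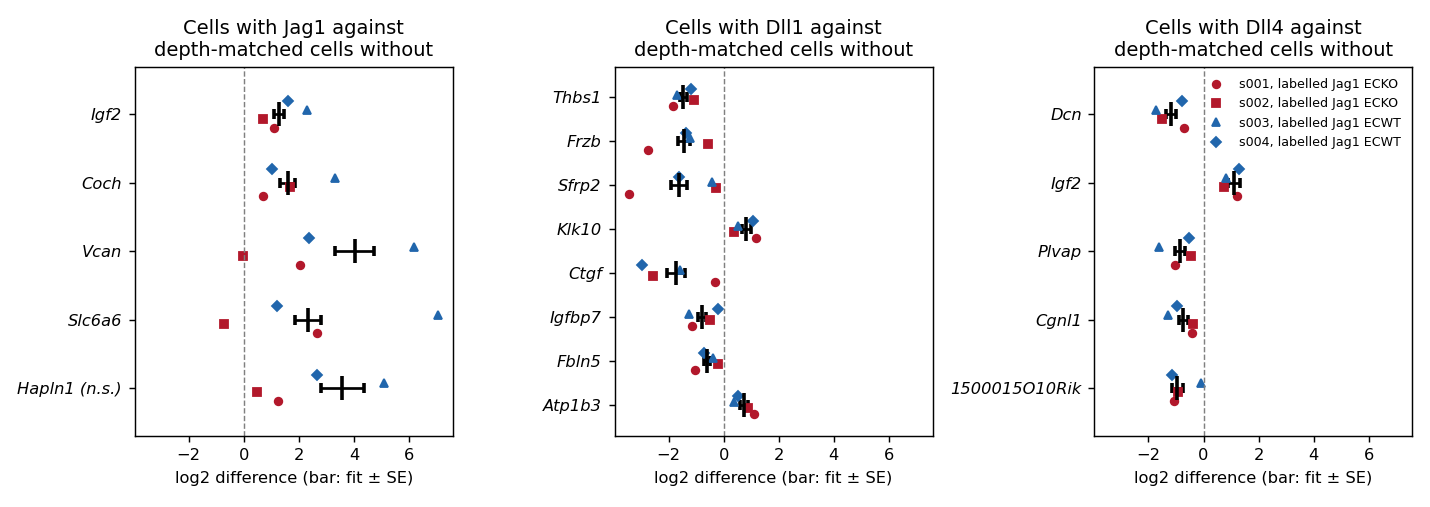
Log2 difference between cells with and depth-matched cells without Jag1, Dll1 or Dll4, per library (symbols) and as fitted (bar, ± SE), for the genes named by the rule; n.s. marks a gene that did not pass. Thbs1 lies at -1.46 with Dll1, Dcn at -1.18 with Dll4, and Igf2 at 1.27 with Jag1 and 1.11 with Dll4, each on 1 side in every library.

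No other gene of the Notch pathway passed the test with any of the ligands. Of 62 listed symbols, in which Nov and Ccn3 name the same gene, 58 were in the table, and 41, 43 and 33 of them were tested with Jag1, Dll1 and Dll4. None was called higher or lower in the 3 comparisons, and their median log2 differences were 0.00, 0.00 and -0.06, beside 0.00 over all genes tested in each. At an unadjusted p below 0.05 there were 1 of 41, 8 of 43 and 1 of 33, beside 195 of 6106, 410 of 6453 and 158 of 3742 over all genes. The gene with Jag1 was the target Hey2 (-0.44, SE 0.18, adjusted p = 1.00) and that with Dll4 was Gata2 (0.37, SE 0.18, adjusted p = 0.992). Among the 8 with Dll1 were Lfng (1.02, SE 0.37, adjusted p = 0.571), the protease gene Adam10 (0.46, SE 0.14, adjusted p = 0.267), the target genes Hes1 (0.61, SE 0.27, adjusted p = 0.691) and Sox17 (-0.37, SE 0.16, adjusted p = 0.691), and the ligand-processing gene Mib2 (-0.86, SE 0.40, adjusted p = 0.739).

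In EC-like cells the receptor gene Notch1 was above each of the ligands in every library, at 208 to 300.2 CPM and Notch4 at 94.9 to 120 CPM over the 4 libraries, with Notch2 at 36.6 to 61.1 and Notch3 at 0.61 to 2.37. Notch1 had a log2 difference of -0.04 (SE 0.17) with Jag1, 0.10 (SE 0.14) with Dll1 and -0.29 (SE 0.22) with Dll4. Notch4 was at 0.08 (SE 0.21), 0.22 (SE 0.23) and 0.14 (SE 0.31). The Fringe gene Mfng was at -0.27, -0.39 and -0.07, with adjusted p of 0.931 or more for receptors and Mfng alike. Rbpj, the nuclear partner of the receptor, was at -0.38, -0.20 and -0.19, and the target Nrarp at 0.05, 0.06 and 0.45. Lfng was at 0.47 with Jag1, Hes1 at -0.35 with Jag1 and 0.42 with Dll4, and Sox17 at -0.04 and 0.31. Hey1, at 4.27 to 11.6 CPM, had too few counts to be tested.

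Between the labels, 52 of the 58 genes were tested and none was called by edgeR, with 5 at an unadjusted p below 0.05 and a median log2 fold change of -0.02, beside 0.00 over all genes. The 5 were Nov, a secreted regulator (1.67, SE 0.44, adjusted p = 0.900, at 83.7, 54.5, 9.31 and 30.2 CPM), Neurl1b (-1.32), Maml3 (-1.58), Dtx2 (-1.08) and Hey2. Notch1 (-0.02, SE 0.19) and Notch4 (0.10, SE 0.20) did not pass, nor did the target genes Hes1 (-0.43, SE 0.30), Hey1 (0.19, SE 0.55), Hey2 (-0.41, SE 0.17, adjusted p = 0.900), Nrarp (0.32, SE 0.31) and Sox17 (-0.18, SE 0.18).

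Whether a gene went with a ligand to a different extent under the 2 labels was tested with an interaction term. With Jag1, 1 gene was called (Fos, 0.0164% of 6106), with Dll1 none (0% of 6453, 268 at an unadjusted p below 0.05) and with Dll4 3 (Coch, Fabp4 and Sfrp2, 0.0802% of 3742). DESeq2 called none with any of the ligands.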

How the data were processed

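The authors made SORT-seq libraries from sorted cells. They deposited, for every gene in each cell, an estimated count of its transcripts, and submitters' notes name STAR and GRCm38. Each deposited value is a number of UMIs corrected for repeated UMIs, without normalization between cells, and the STAR version and counting tool are not given in the sources used here. The notes also name Seurat 3.1. Values were rounded to whole counts for the tests, and libraries held 859280 to 1779042 counts over cells with more than 1200 genes. The members and lists were chosen with earlier results of these data known.

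R 4.3.3 with Seurat 5.3.0 was used to cluster the cells, without the ligands, at the lowest resolution that gave 14 clusters. Markers were scored as raised where CPM + 20 was at least 3 times that of the remaining cells. A cluster with 6 or more fibroblast and VSMC markers was called fibroblast/VSMC-like, and 1 with 7 or more of 10 EC markers above a fixed share of their mean EC-like. No doublet caller was run on these sorted wells. CPM is the count per 1000000 counts of the cells summed. Thinning used the exact hypergeometric probability that a cell keeps a count at 2837 counts, the 10th percentile of depth, which kept 742 cells.

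Counts summed per library were tested with edgeR 4.0.16 (TMM, filterByExpr, quasi-likelihood, Benjamini-Hochberg adjustment over all genes tested, threshold 0.05), with DESeq2 1.42.0 as an alternative. Libraries with under 10 cells with a ligand gave no sums for it. The text names up to 8 genes per ligand with the smallest p among those called and on the same side in every library, or, where fewer than 3 pass, the 5 with the smallest p, and set members of the Notch list. Of that list, Dlk2, Neurl1a and Hes5 were not matched, and Ccn3 was matched under its older name Nov. Tests were tried on simulated data with genes changed 2-fold or 4-fold. In the comparison of labels 21% and 84% of these were recovered among 9448 genes, with Jag1 64% and 88% among 5603, with Dll1 57% and 87% among 6084, and with Dll4 49% and 86% among 3275, while 5, 8, 6 and 1 unchanged genes were called. Alternatives changed the tool, scaling, filter, gene minimum, cells, matching, depth and libraries. The gene positions are from GENCODE vM21 and figures were drawn with matplotlib.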

Additional observations from a re-analysis of the deposited data

Results flagged for a closer look

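Jag1 over Dll1 went opposite ways under the labels. The log2 ratio of their levels was 0.64 and 1.49 under the label Jag1 ECKO, and -1.70 and -1.44 under Jag1 ECWT. The difference between labels was not tested.

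In 4 cases a gene went with a ligand to a different extent under the labels by the interaction term of edgeR, and in none by DESeq2. Fos, an early response gene, differed by -4.48 with Jag1 (SE 0.74, adjusted p = 0.00564). It had 29 counts with Jag1 and 56 without in s001, 17 and 19 in s002, 5 and 2 in s003, and 48 and 2 in s004. The dissociation response list, to which Fos belongs, summed to 3699 CPM with Jag1 against 4496 without in s001, 2000 against 1811 in s002, 4110 against 2413 in s003 and 3143 against 2211 in s004, and its part in the result was not tested. Sfrp2 differed by -6.75 with Dll4 (SE 0.76, adjusted p = 6.58e-09), Fabp4 by -4.83 (SE 0.76, adjusted p = 5.40e-05) and Coch by -4.47 (SE 0.79, adjusted p = 5.45e-04), all as labelled Jag1 ECKO minus labelled Jag1 ECWT on the log2 scale. For Sfrp2, 148 of the 156 counts in cells of s001 without Dll4 came from 1 cell, and for Coch, 70 of 70 counts in cells of s003 with Dll4.

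Cells with at most 1200 genes also held ligands. They entered only the alternatives of the comparison of labels that lowered or dropped the gene minimum. There were 30 Jag1 counts in 70 such cells of s001 and 4 in 37 cells of s002, and 0 in 25 cells of s003 and 35 of s004. Dll1 had 15, 1, 8 and 2 counts in such cells of s001 to s004. Dll4 had 10 counts in such cells of s001, at 75.6 CPM the highest of the libraries, and Jag2 had 1 in s002.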

How the results depend on the processing

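Jag1 between labels kept its direction under every alternative tried. It passed with DESeq2 (1.97), without the low-count filter (1.97) and without s001 or s002, and not without s003 or s004 (1.36 to 2.42 over libraries left out). No gene was called between labels, against 2 with DESeq2, 127 without the filter, 196 without s001 and 417 without s002. With libraries left out, Dll1 ranged from -1.70 to 0.20 and Dll4 from -0.36 to 0.71, and Dll4 was -0.018 without cluster 7. Unthinned shares were 28.5% for Dll1 and 11.1% for Dll4. Co-detection of Jag1 and Dll1 ranged from 0.765 to 1.09 with a library left out, and that of Jag2 and Dll4 was 0 without cluster 13, where the only such cell was under the depth of thinning. Genes called with Jag1 (4) became 7 with all EC-like cells without a count, 1 with DESeq2, 12 without the filter, 1 without cluster 13 and 2 to 3 with a library left out. With Dll1 (12) they became 7 over all cells, 1 with DESeq2, 36 without the filter, 21 without cluster 13 and 1 to 21 with a library left out. With Dll4 (6) they became 2 with all EC-like cells without a count, 1 with DESeq2, 10 without the filter, 1 without cluster 13 and 1 to 5 with a library left out. The genes whose link to a ligand differed between labels became 0 with DESeq2. The cause was not tested. Of 155 values of single named genes under alternatives, 86 stayed on their side of the threshold, 67 lost their call, 2 gained one and none changed direction. Recovered UMI numbers, leaving out clusters 7 and 13, and DESeq2 for the interaction were chosen after seeing the data. No paired analysis was possible because nothing pairs libraries across labels. Jag2 had the fewest counts of the 4 ligands, 13 in all.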
